A study of Oryzias latipes with 18 samples.

Results

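Cytokines, chemokines, their receptors and the proteins that carry innate immune signals were followed through medaka testes from fish with and without an ancestral exposure to bisphenol A (BPA), kept with or without perfluorooctane sulfonate (PFOS). Members were chosen by name alone. A gene counted when its symbol began with il, ccl, ccr, irf or stat plus a digit, or with cxcl, cxcr, tnf, tlr, jak, myd88, nfkb, rel or csf, and when its mean value over the libraries was at least 10. Of 22941 genes in the table, 104 matched the names and 90 of these reached the mean of 10. They make up 0.479% of the 18792 genes tested. The 90 comprise 18 ligands, 25 receptors, 7 Toll-like receptors and MyD88 together, and 9 JAK kinases and STAT factors. They also hold 9 NF-kB subunits and inhibitors, 9 interferon regulatory factors (IRF) and 5 TNF-induced and associated proteins. The other 8 (jakmip1, jakmip2, jakmip3, RELL1, relch, nfkbil1, irf2bp1 and irf2bp2a) share the start of a name and were kept because the rule takes them.

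A cytokine or chemokine binds a receptor on the target cell. Many, but not all, cytokine receptors without a kinase of their own use JAK kinases. These phosphorylate STAT proteins, which then enter the nucleus as transcription factors. Toll-like receptors recognise microbial molecules and most of them signal through the adaptor MyD88 to NF-kB, a family of dimeric transcription factors held in the cytoplasm by inhibitor proteins. In the vertebrate testis these signals pass between resident macrophages, Sertoli cells, Leydig cells and germ cells, and the organ is known for restraining immune responses against its own germ cells.

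Testes came from 2 lineages. The BPA lineage descended from fish exposed as embryos to BPA, a plasticizer, at 10 µg/L, 4 generations before. The control lineage had no such ancestors. Males of each lineage were kept for 21 days at 0, 0.002 or 0.02 mg/L PFOS, a persistent fluorinated surfactant. A group is named here by lineage and PFOS concentration in mg/L: BPA 0, BPA 0.002, BPA 0.02, control 0, control 0.002 and control 0.02. Each had 3 libraries that the labels call biological replicates. The labels do not say how many fish a library holds, and no strain, age or allele is stated. P-values measure the spread between these libraries.

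Recovered depth was 23685023 to 47728071 reads per library. The library labelled control 0.002 replicate 2 stood apart, with a highest log2 correlation of 0.779 with its own group, and its 7 oocyte markers summed to 634992 normalized reads (306 to 6299 in the other 17 libraries). Its 5 Sertoli markers summed to 7824 (30159 to 64664 elsewhere) and its 6 spermatid markers to 1750 (16377 to 26177 elsewhere). It was kept out of the fit and of all group means, so control 0.002 has n = 2. The other 17 libraries held the Sertoli, meiotic, spermatid and spermatogonial markers of a testis. In 2 of the 3 control 0 libraries, replicates 1 and 3, the 7 gut and kidney markers summed to 41328 and 40455 normalized reads. They summed to 376 in control 0 replicate 2 and to 57.9 to 379 in the remaining libraries. Every comparison that uses control 0 carries those 2 libraries, and no member called in such a comparison passed without both. Differences without them are therefore given for each member call and for some of the other differences named. Differences over the mean of doses are given with those libraries only. The sum of the 6 leukocyte markers was 1134 to 1724 in BPA 0, 701 to 945 in BPA 0.002, 670 to 1099 in BPA 0.02, 833 to 2250 in control 0, 761 to 1363 in control 0.002 and 1082 to 1599 in control 0.02. The 6 did not move together in control 0.02 against control 0: VAV1 was called higher (0.95 ± 0.29 (limma, adjusted p = 0.0434); 1.23 and not called without those 2 libraries), while ptprc and lcp1 had -0.90 ± 0.58 and -1.08 ± 0.51, not called. VAV1 also passed for the interaction of lineage and PFOS at 0.02 mg/L (-1.49 ± 0.41 (limma, adjusted p = 0.0253)). The value of that interaction without those 2 libraries is not given here.

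In control 0.02 against control 0, 9 members passed the threshold, an adjusted p under 0.05 over all genes tested. One, il12ba, was higher and 8 were lower: tnfaip8l3, jak2a, ccl25a, tnfsf10, stat6, nfkb2, cxcr3.2 and cxcl12. That is 1.11% of members higher and 8.89% lower, beside 6.15% and 6.67% of all genes. The 10% of members called in either direction lay below the 12.8% of all genes. With TMM scaling no member was higher and 10 were lower, and the split of all genes was 828 higher and 1410 lower in place of 1155 and 1254. Leaving out single libraries gave 1 member without control 0 replicate 1, 7 without replicate 2, 1 without replicate 3, none without control 0.02 replicate 1, 10 without replicate 2 and 1 without replicate 3. Without both control 0 libraries rich in gut and kidney transcripts, which leaves 1 library there, no member and 12 of all genes passed. DESeq2 called 17 members, the groups of the comparison alone gave 4 and all 18 libraries gave 0.

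In control 0.002 against control 0, 4 members were lower, tnfsf10, ccl25b, stat6 and il17rd, and none was higher. The 4.44% of members lower stood beside 2.74% of all genes, and the 0% higher beside 1.86%. In either direction 4.59% of all genes passed. TMM scaling gave 5 lower members and 210 higher and 563 lower genes in all, in place of 349 and 514. No member passed without control 0 replicate 1, control 0 replicate 3 or control 0.002 replicate 3, 7 passed without control 0 replicate 2 and 5 without control 0.002 replicate 1. DESeq2 called 16 members, all 18 libraries gave 8, a replicate block 2, and the groups of the comparison alone or the fit without both gut- and kidney-rich libraries 0. The fits without a control 0.002 replicate leave 1 library there, assumed to vary like the other groups.

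In the BPA lineage no member passed at either PFOS concentration. At 0.02 mg/L, 0.357% of all genes were higher and 0.0532% lower (0.41% in all). Among members, 3 were higher and 10 lower at an unadjusted p under 0.05, 3.33% and 11.1% beside 9.4% and 9% of all genes. edgeR also called none and DESeq2 called 3. Leaving out BPA 0.02 replicate 3 gave 3 members and leaving out BPA 0.02 replicate 1 gave 2. At 0.002 mg/L no gene of the table passed, 4 members were higher and 4 lower at an unadjusted p under 0.05 (4.99% and 4.57% of all genes), and edgeR and DESeq2 both called no member.

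Without PFOS, BPA-lineage testes differed from control-lineage testes in 7 members. irf4a and il12ba were higher and ccl25a, il17rd, jak2a, stat1a and jak1 lower. Members higher made up 2.22% beside 4.29% of all genes, and members lower 5.56% beside 5.97% (7.78% and 10.3% in either direction). Under TMM 2 members were higher and 6 lower. DESeq2 called 17, and all 18 libraries or the fit without both gut- and kidney-rich libraries gave 0. No member passed without BPA 0 replicate 1, BPA 0 replicate 2 or control 0 replicate 1, 8 passed without BPA 0 replicate 3, 5 without control 0 replicate 2 and 3 without control 0 replicate 3. At 0.002 and 0.02 mg/L and over the mean of the doses the lineages differed in no member, and in 0%, 0.0213% and 0.0479% of all genes. At 0.02 mg/L these were 0.016% higher and 0.00532% lower, and over the mean 0.0319% and 0.016%. The unadjusted counts there were 10 higher and 3 lower, 3 higher and 4 lower, and 4 higher and 6 lower members. Over all genes the unadjusted shares were 4.79% and 3.63%, 6.45% and 5.63%, and 4.65% and 3.96%, and edgeR called no member in any of these comparisons. DESeq2 called none at either dose and 2 over the mean. Leaving out control 0.002 replicate 1 gave 2 members at 0.002 mg/L and leaving out control 0.02 replicate 2 gave 1 at 0.02 mg/L.

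The interaction asks whether the PFOS difference itself differs between lineages, and is the BPA-lineage difference minus the control-lineage one. At 0.02 mg/L it passed for 8 members: jak2a, stat1a, jak1, nfkb2, tnfsf10 and ccl25a were positive, rela and il12ba negative. These were 6.67% and 2.22% of members, beside 7.89% and 6.34% of all genes, or 8.89% and 14.2% in either direction. The median over all genes was -0.10 on the log2 scale and moved to 0.02 under TMM, where the same 8 members passed and all genes split 1707 to 860 in place of 1483 to 1191. Leaving out single libraries gave 4, 2 and 12 members without BPA 0 replicates 1, 2 and 3, and 5, 4 and 11 without BPA 0.02 replicates 1, 2 and 3. On the control side it gave 3, 9 and 4 without control 0 replicates 1, 2 and 3, and 3, 13 and 2 without control 0.02 replicates 1, 2 and 3. DESeq2 called 13, the groups of the comparison alone gave 4, and all 18 libraries or the fit without both gut- and kidney-rich libraries 0. At 0.002 mg/L il17rd was the one member that passed, 1.11% of members beside 0.623% of all genes higher, 0.277% lower and 0.899% in all, and the median over all genes was -0.05 and 0.09 under TMM. There DESeq2 called 10 members and the groups of the comparison alone gave 8, while edgeR, all 18 libraries, a replicate block, no filter and the fit without both gut- and kidney-rich libraries gave 0. In the 3 comparisons with most calls the share of members called in either direction was below that of all genes, and in the other 2 it rests on 4 genes and 1 gene. The results that follow are therefore for single members. All comparisons with 0 mg/L in a lineage share the libraries of that group.

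**Figure D1:**
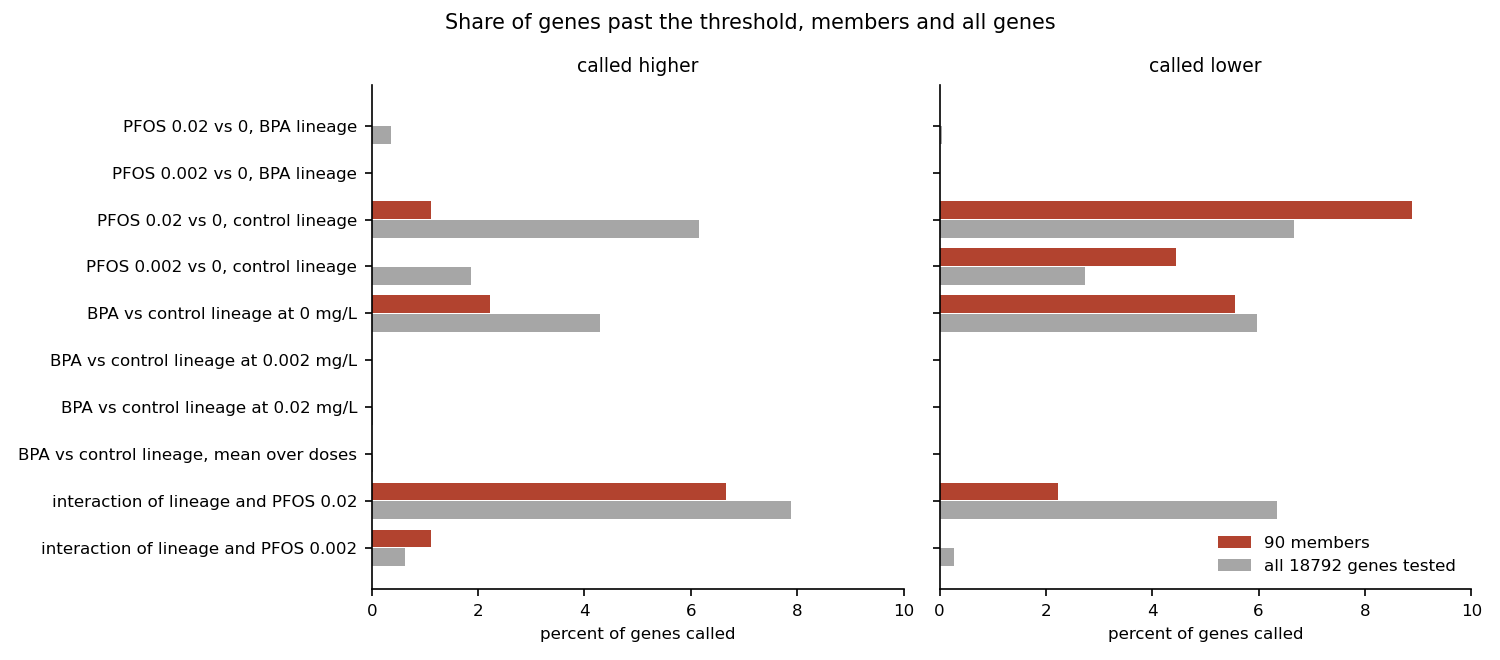
Percent of the 90 members (red) and of all 18792 genes tested (grey) with an adjusted p under 0.05, higher in the left panel and lower in the right, for each of the 10 comparisons. The longest red bar is 8.89%, for members lower at 0.02 mg/L PFOS in the control lineage, beside 6.67% of all genes.

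The JAK kinases and STAT factors gave the member whose difference between lineages passed most often. jak2a (ENSORLG00000010002), which serves receptors for growth hormone, interferon gamma and other cytokines in mammals, had 932, 995 and 329 normalized reads in BPA 0.02 testes and 324, 255 and 493 in BPA 0 testes. In the control lineage it had 416, 484 and 249 in control 0.02 testes and 956, 1174 and 851 in control 0 testes. The control 0 libraries were all above the control 0.02 ones, while in the BPA lineage 2 exposed libraries lay above all 3 unexposed ones and the other among them. The log2 difference was -1.41 ± 0.37 (SE; limma, adjusted p = 0.0263) for control 0.02 against control 0, and 0.97 ± 0.37 (SE; limma, adjusted p = 0.185) for BPA 0.02 against BPA 0. Their interaction was 2.38 ± 0.52 (SE; limma, adjusted p = 0.00893). It passed in all 12 fits that left out 1 library, with values of 2.10 to 2.90, but not with all 18 libraries (2.38, adjusted p = 0.0861, limma) or without both control 0 libraries rich in gut and kidney transcripts (2.63, adjusted p = 0.0609, limma). In bulk tissue, fewer cells of a type and less RNA per cell cannot be told apart.

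Without PFOS, jak2a was lower in the BPA lineage, with a log2 difference of -1.51 ± 0.37 (SE; limma, adjusted p = 0.0197), and the groups did not overlap. This difference and that of control 0.02 against control 0 were -1.77 and -1.67 without both gut- and kidney-rich libraries. Each of these 2 calls was lost in 6 of 15 alternative runs, among them this run and runs without 1 library. At 0.002 mg/L jak2a had 792, 693 and 534 reads in BPA 0.002 testes and 687 and 520.0 in control 0.002 testes. Those values overlapped, and both sets lay between the unexposed groups of the 2 lineages.

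stat1a (ENSORLG00000000162), a transcription factor of the interferon response, followed the same layout. It had 2429, 1794 and 1359 reads in BPA 0.02 testes and 992, 983 and 1071 in BPA 0 testes, with no overlap. Control 0.02 testes had 1532, 1655 and 979 and control 0 testes 1952, 1516 and 1999, which overlapped. The difference in the BPA lineage was 0.83 ± 0.23 (SE; limma, adjusted p = 0.0845), short of the threshold. It passed without BPA 0.02 replicate 3 (adjusted p = 0.0234, limma) and in 1 of the 8 alternative runs other than those without 1 library. The difference in the control lineage was -0.42 ± 0.23 (SE; limma, adjusted p = 0.215). The interaction was 1.25 ± 0.32 (SE; limma, adjusted p = 0.0178) and passed in 11 of 12 fits that left out a library, the exception being control 0.02 replicate 3 (adjusted p = 0.0578, limma). Without PFOS stat1a was lower in the BPA lineage, with a log2 difference of -0.83 ± 0.23 (SE; limma, adjusted p = 0.0299). Without both gut- and kidney-rich libraries these last 2 values were 0.997 and -0.58, with adjusted p of 0.189 and 0.467 (limma).

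jak1 (ENSORLG00000010063), the partner kinase for interferon and gp130 receptors, had 778, 786 and 964 reads in BPA 0 testes and 1298, 1317 and 1369.6 in control 0 testes. The BPA libraries were all lower, with a difference of -0.66 ± 0.21 (SE; limma, adjusted p = 0.0496). At 0.02 mg/L it had 1295, 1259.5 and 809 in BPA 0.02 testes and 912, 1052 and 661 in control 0.02 testes, which overlapped. Its interaction at 0.02 mg/L was 1.01 ± 0.29 (SE; limma, adjusted p = 0.0294) and passed in 4 of 12 fits without 1 library. Without both gut- and kidney-rich libraries the 2 values were -0.65 and 1.002. The call between lineages without PFOS was lost in 9 of 15 alternative runs.

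stat6 (ENSORLG00000024001), the factor of interleukin-4 and interleukin-13 signalling in mammals, fell in the control lineage at both concentrations. It had 305, 250.1 and 509.6 reads in control 0 testes, 122 and 121 in control 0.002 testes and 207, 120.0 and 131 in control 0.02 testes, and neither exposed group overlapped the unexposed one. The differences were -1.48 ± 0.38 (SE; limma, adjusted p = 0.0411) at 0.002 mg/L and -1.19 ± 0.34 (SE; limma, adjusted p = 0.0354) at 0.02 mg/L. Each passed in 1 leave-one-out fit alone, that without control 0 replicate 2, and without both gut- and kidney-rich libraries they were -1.04 and -0.75 (adjusted p = 0.532 and 0.472, limma). BPA-lineage testes had 226, 181 and 259.5 reads in BPA 0, 132, 214 and 259 in BPA 0.002 and 277, 218 and 157 in BPA 0.02, all overlapping.

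The remaining members of this group were not called in any comparison. stat2, an interferon factor, ranged from 1735 to 2410 normalized reads over the 17 libraries and had the smallest spread within groups of the JAK and STAT genes (SD 0.139 on the log2 scale). stat3, a factor of interleukin-6 signalling, had 1050.0, 1199.9 and 1131 in BPA 0.02 testes and 1789, 1380.3 and 1829 in control 0.02 testes, without overlap, and its lineage difference there was -0.55 ± 0.20 (SE; limma, adjusted p = 0.292). Over the mean of doses stat3 was -0.42 ± 0.12 (SE; limma, adjusted p = 0.348). stat5a ranged from 430.1 to 1646 reads, stat4 from 173 to 323 and jak3 from 27.4 to 153. The lineage difference without PFOS was negative for 9 of 9 JAK and STAT members, with a median of -0.46, while the median over all genes was 0.07. The 3 of 9 called lower stand beside 5.97% of all genes, and the share of all genes below 0 was not counted. The 9 were measured in the same libraries and are not replicates. Their difference was negative for 9 of 9 under TMM and for 7 of 9, with a median of -0.15, without both gut- and kidney-rich libraries.

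**Figure D2:**
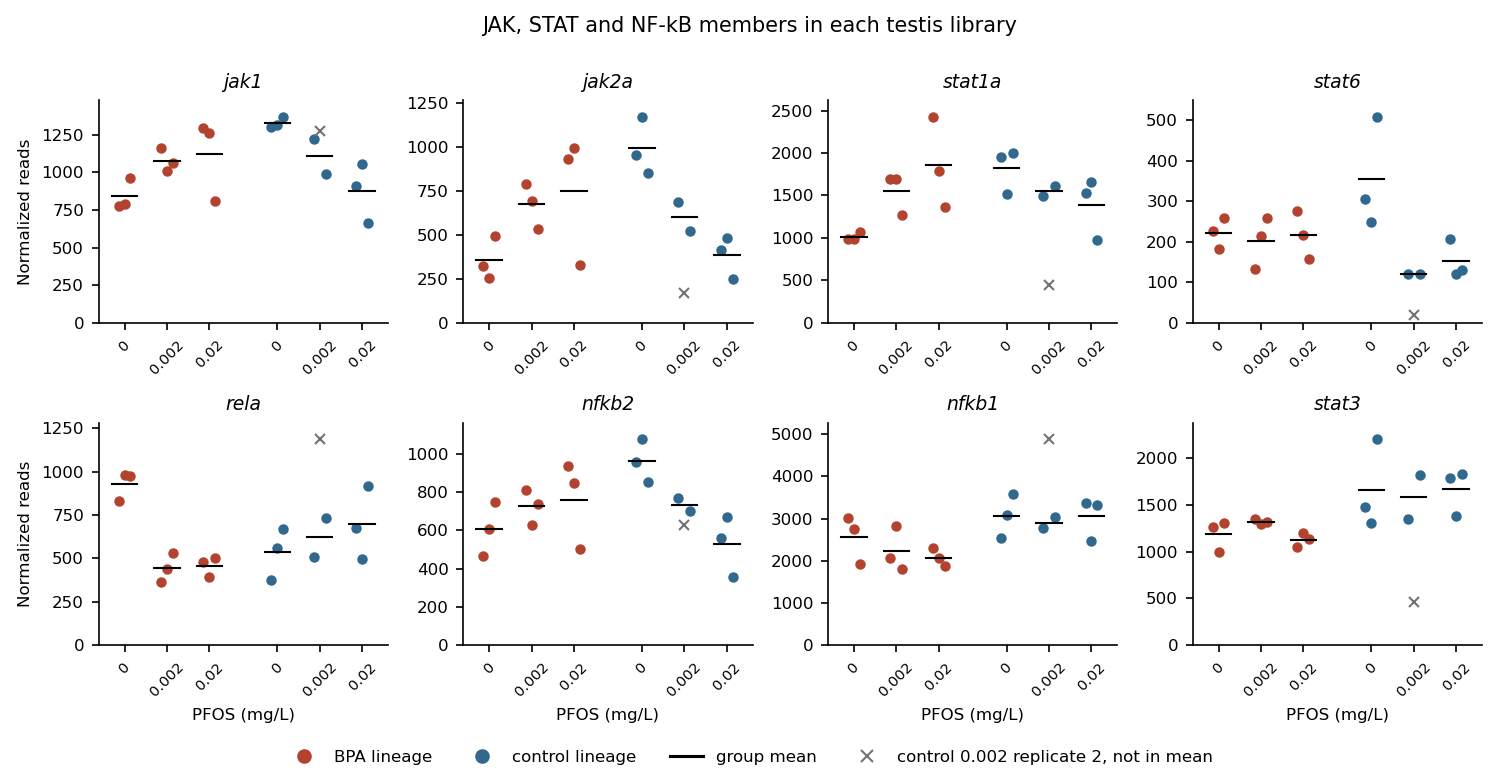
Normalized reads (linear axis from 0) of 8 JAK, STAT and NF-kB members in every library, by PFOS concentration in mg/L, for the BPA lineage (red) and the control lineage (blue). Points are libraries, bars are group means, and the cross is the library left out of the fit. jak2a runs from 329 to 995 in BPA 0.02 and from 255 to 493 in BPA 0, against 249 to 484 in control 0.02 and 851 to 1174 in control 0.

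Single germ-cell and Sertoli-cell markers moved with jak2a and stat1a, and 1 spermatogonial marker moved against them. The interaction at 0.02 mg/L was 3.34 ± 0.61 (limma, adjusted p = 0.004) for sycp1, a synaptonemal complex gene and 1 of 4 meiotic markers, and 2.63 ± 0.36 (limma, adjusted p = 0.0012) for cfap43, a flagellar gene and 1 of 5 spermatid markers tested. It was 2.66 ± 0.36 (limma, adjusted p = 0.00117) for 1 of the 2 rows named amh, the anti-Müllerian hormone of Sertoli cells, and no other of the 5 Sertoli rows passed for it. In control 0.02 against control 0 the values of these 3 genes were -1.81 ± 0.43 (limma, adjusted p = 0.021), -1.52 ± 0.26 (limma, adjusted p = 0.00658) and -1.25 ± 0.26 (limma, adjusted p = 0.012). None of these 3 passed without both gut- and kidney-rich libraries (-1.51, -1.34 and -1.23). For the interaction cfap43 and amh then still passed (2.45 and 2.64, adjusted p = 0.0299 and 0.0243, limma) and sycp1 did not (3.04, adjusted p = 0.0513, limma). The other 3 meiotic markers had differences of the opposite sign to sycp1, none called. For dmc1, spo11 and hormad1 these were 0.58 ± 0.22, 0.42 ± 0.24 and 0.43 ± 0.21 in control 0.02 against control 0, and -0.42 ± 0.32, -0.25 ± 0.34 and -0.30 ± 0.30 for the interaction. The median over the 4 meiotic markers was 0.42 and -0.28, against 0.03 and -0.10 over all genes. Over the 5 spermatid markers it was -0.37 and 0.73, and over the 5 Sertoli rows -0.90 and 0.50. The Sertoli marker gsdf had 0.05 ± 0.27 and -0.39 ± 0.39, opposite in sign to the called amh row and not called. The other amh row, inha and cldn11a had the signs of the called amh row. For BPA 0.02 against BPA 0, which does not use control 0, the called amh row had 1.41 ± 0.26 (limma, adjusted p = 0.045). No other Sertoli row passed there, and inha and gsdf had negative values (-0.40 ± 0.38 and -0.33 ± 0.27). Of 4 spermatogonial markers, ddx4 was called in the direction opposite to jak2a. It had 0.76 ± 0.21 (limma, adjusted p = 0.0291) in control 0.02 against control 0 and -0.93 ± 0.29 (limma, adjusted p = 0.0433) for the interaction. id4 had -2.15 ± 0.47 (limma, adjusted p = 0.0149) and 1.78 ± 0.67, the latter not called, and nanos2 and piwil1 were called in neither. Both comparisons use control 0 with its 2 gut- and kidney-rich libraries, and values of ddx4, id4 and the oocyte markers without them are not given here. cldn11a, another Sertoli marker, fell in control 0.02 and in control 0.002 (-2.46 ± 0.61 and -2.71 ± 0.68), and inha fell in control 0.002 (-1.60 ± 0.43), calls that were lost without those libraries (-2.19, -2.44 and -1.52). Of 7 oocyte markers 4 were higher in control 0.02 than in control 0, with sums of 832 to 6299 and 306 to 409. Their part in the JAK and STAT differences was not tested. The Sertoli sum was 45239 to 58228 in BPA 0.02, 40693 to 51784 in BPA 0, 34132 to 53818 in control 0.02 and 47977 to 64664 in control 0.

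Among NF-kB members the subunits moved in unlike ways. rela (ENSORLG00000011104), the transactivating p65 subunit, had 831, 983 and 976 reads in BPA 0 testes, 365, 439 and 532 in BPA 0.002 testes and 480.3, 391 and 501 in BPA 0.02 testes. Both exposed groups lay wholly below the unexposed one, at about the level of control 0 testes (378, 562 and 670.5). The differences were -1.07 ± 0.26 (SE; limma, adjusted p = 0.43) at 0.002 mg/L and -1.03 ± 0.26 (SE; limma, adjusted p = 0.0713) at 0.02 mg/L. Neither passed, although leaving out BPA 0.02 replicate 3 brought the difference at 0.02 mg/L past the threshold (adjusted p = 0.0453, limma). That difference also passed in 1 of the 8 alternative runs other than those without 1 library. In control 0.02 testes rela had 675, 496 and 917 reads, and the interaction at 0.02 mg/L was -1.39 ± 0.37 (SE; limma, adjusted p = 0.0199). It passed in 8 of 12 fits without 1 library, with values of -1.62 to -1.16, and did not pass without both gut- and kidney-rich libraries (-1.29, adjusted p = 0.12, limma). The corresponding value at 0.002 mg/L was -1.30 ± 0.39 (SE; limma, adjusted p = 0.0759).

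nfkb2 (ENSORLG00000002942), precursor of the p52 subunit of the non-canonical pathway, had 562, 673 and 356 reads in control 0.02 testes and 957, 1077 and 851 in control 0 testes. The exposed libraries were all lower, with a log2 difference of -0.90 ± 0.26 (SE; limma, adjusted p = 0.038). In the BPA lineage it had 937, 846 and 503 at 0.02 mg/L and 466, 610.3 and 749 without PFOS, overlapping, and the interaction was 1.20 ± 0.37 (SE; limma, adjusted p = 0.0416), passing in 3 of 12 fits without 1 library. Without both gut- and kidney-rich libraries the 2 values were -1.07 and 1.37. The call for control 0.02 against control 0 was lost in 8 of 15 alternative runs.

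nfkb1, precursor of the p50 subunit, ranged from 1801 to 3589 reads over the 17 libraries, and its lineage difference over the mean of doses was -0.41 ± 0.13 (SE; limma, adjusted p = 0.358). The inhibitor gene nfkbie had the smallest p of any member for that mean, with -0.47 ± 0.11 (SE; limma, adjusted p = 0.19). It passed there in 1 of the 9 alternative runs other than those without 1 library. It had 735, 684 and 702 in BPA 0 testes and 1028, 1158 and 879 in control 0 testes, with no overlap. The other NF-kB members, nfkbiab, nfkbiaa, nfkbiz, relb and REL, were not called. nfkbiz ranged from 118 to 303 and relb from 241 to 439. REL had 484, 560.3 and 510.5 in BPA 0.02 testes and 330.0, 400.3 and 282 in control 0.02 testes, without overlap, and a difference of 0.63 ± 0.21 (SE; limma, adjusted p = 0.268). The 2 genes of the inhibitor IkB alpha, both NF-kB targets in vertebrates, differed in range. nfkbiab ranged from 1181 to 2226 reads and nfkbiaa from 299 to 1572.

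Ligands held the largest log2 differences. tnfsf10, whose mammalian counterpart TRAIL binds death receptors, has 2 rows of that name, and 1 of them (ENSORLG00000013268) was called. It had 282, 316 and 317 reads in control 0 testes, 108 and 38.5 in control 0.002 testes and 55.8, 149 and 150.4 in control 0.02 testes. All 5 exposed libraries lay below the 3 unexposed ones. The part of the gut and kidney transcripts of control 0 in this was not tested. The differences were -2.22 ± 0.46 (SE; limma, adjusted p = 0.0291) and -1.49 ± 0.41 (SE; limma, adjusted p = 0.0314). Without both gut- and kidney-rich libraries they were -2.27 and -1.54. The calls were lost in 5 of 14 alternative runs at 0.002 mg/L and in 8 of 15 at 0.02 mg/L, among them this run. BPA-lineage testes had 158, 198 and 189.9 at 0.02 mg/L and 127, 119 and 193 without PFOS. These overlapped, and the interaction at 0.02 mg/L was 1.83 ± 0.59 (SE; limma, adjusted p = 0.0464), passing in 2 of 12 fits without 1 library and 1.88 without both gut- and kidney-rich libraries. The second row (ENSORLG00000011849) had 4.22 and 3.35 reads in control 0.002 testes and 16.6, 16.998 and 90.5 in control 0 testes, a difference of -2.69 ± 0.82 (SE; limma, adjusted p = 0.0647), or -1.92 without both gut- and kidney-rich libraries. Reads of the 2 rows could be shared between near-identical copies.

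The ccl25 genes encode a chemokine that draws T cells to thymus and gut in mammals. ccl25a (ENSORLG00000018031) had 7.83, 5.65 and 18.4 reads in control 0.02 testes, 3.37, 4.69 and 13.5 in BPA 0 testes and 602, 12.95 and 1259 in control 0 testes. Its high values were those of the 2 control 0 libraries rich in gut and kidney transcripts, and control 0 replicate 2 lay within the range of all other groups (3.37 to 25.6). The differences were -4.39 ± 1.18 (SE; limma, adjusted p = 0.0283) for control 0.02 against control 0 and -4.95 ± 1.18 (SE; limma, adjusted p = 0.0181) for BPA 0 against control 0. Without those 2 libraries they were -0.42 and -0.97. The interaction at 0.02 mg/L, 5.30 ± 1.67 (SE; limma, adjusted p = 0.044), was 1.32 without them.

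ccl25b (ENSORLG00000028881) did not share that layout. It had 216 and 168 reads in control 0.002 testes and 477, 461 and 1043 in control 0 testes, without overlap, and a difference of -1.68 ± 0.36 (SE; limma, adjusted p = 0.0291). At 0.02 mg/L it had 410.3, 416 and 656, overlapping control 0. The fall at 0.002 mg/L passed without control 0 replicate 2 and without control 0.002 replicate 1, and not in the other 3 leave-one-out fits, with values of -1.88 to -1.29. It was -1.27 without both gut- and kidney-rich libraries.

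cxcl12 (ENSORLG00000015121), the chemokine that guides migrating germ cells in zebrafish, had 18.6, 3.53 and 24.3 reads in control 0.02 testes and 70.03, 64.8 and 107 in control 0 testes. The exposed libraries were all lower, with a log2 difference of -2.60 ± 0.83 (SE; limma, adjusted p = 0.0492), and the call was lost in each of the 6 fits that left out a library (-3.08 to -1.84). It was -2.33 without both gut- and kidney-rich libraries. In the BPA lineage it had 60.7, 33.7 and 11.3 at 0.02 mg/L and 4.22, 30.99 and 48.1 without PFOS, a wide overlap.

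il12ba and IL12B (ENSORLG00000007477 and ENSORLG00000002238) both encode the p40 chain shared by interleukins 12 and 23. il12ba had 61.7, 19.1 and 69.3 reads in control 0.02 testes and 7.003, 6.48 and 2.86 in control 0 testes, all higher after exposure. In the BPA lineage it had 110.3, 4.91 and 4.12 at 0.02 mg/L and 57.3, 70.4 and 44.4 without PFOS. One BPA 0.02 library was thus the highest of the 17 and the other 2 were among the lowest. The differences were 2.86 ± 0.89 (SE; limma, adjusted p = 0.045) in the control lineage and -1.94 ± 0.89 (SE; limma, adjusted p = 0.259) in the BPA lineage, with an interaction of -4.80 ± 1.26 (SE; limma, adjusted p = 0.0202). BPA 0 exceeded control 0, with 3.23 ± 0.89 (SE; limma, adjusted p = 0.0321). Without both gut- and kidney-rich libraries the 3 calls were lost, with 2.58 for control 0.02 against control 0, -4.51 for the interaction and 2.94 for BPA 0 against control 0. The rise in the control lineage passed in 1 of 6 fits without 1 library, that without control 0.02 replicate 2, and missed the threshold under TMM (adjusted p = 0.0514, limma).

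IL12B had 245, 367 and 251 reads in BPA 0 testes and 62.4, 59.1 and 36.1 in control 0 testes, without overlap. Its difference was 2.45 ± 0.82 (SE; limma, adjusted p = 0.0646), short of the threshold, and 2.24 without both gut- and kidney-rich libraries.

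The other ligands were not called. il10, an anti-inflammatory cytokine, ranged from 7.28 to 128 reads, and il34, which activates the macrophage receptor csf1r in mammals, from 9.59 to 60.1. tnfa, the gene of tumour necrosis factor, had 10.4 to 30.4 reads in the BPA lineage and 8.85 to 38.2 in the control lineage, and its differences lay between -0.59 and 0.46 in all 8 comparisons other than the interactions. CXCL8, a neutrophil attractant, had 238 reads in control 0 replicate 3 and 0 to 8.28 in the other 16 libraries. tnfsf12 had the smallest p between lineages at 0.002 mg/L, with 91.4, 262 and 269 reads in BPA 0.002 testes and 93.5 and 23.4 in control 0.002 testes. Those groups overlapped by 1 library, and the difference was 1.96 ± 0.53 (SE; limma, adjusted p = 0.297). tnfsf10l ranged from 180.0 to 444. Among the ligands not yet described, cxcl14, a chemokine of epithelia in mammals, ranged from 37.7 to 400.2, il11a, of the interleukin-6 family, from 2.81 to 69.5, tnfsf13b, the B cell survival factor BAFF, from 2.10 to 33.6 and il17c from 0.837 to 41.3. The member row of il17d reached the mean of 10 only through the library left out, and averaged 8.74 reads over the other 17.

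**Figure D3:**
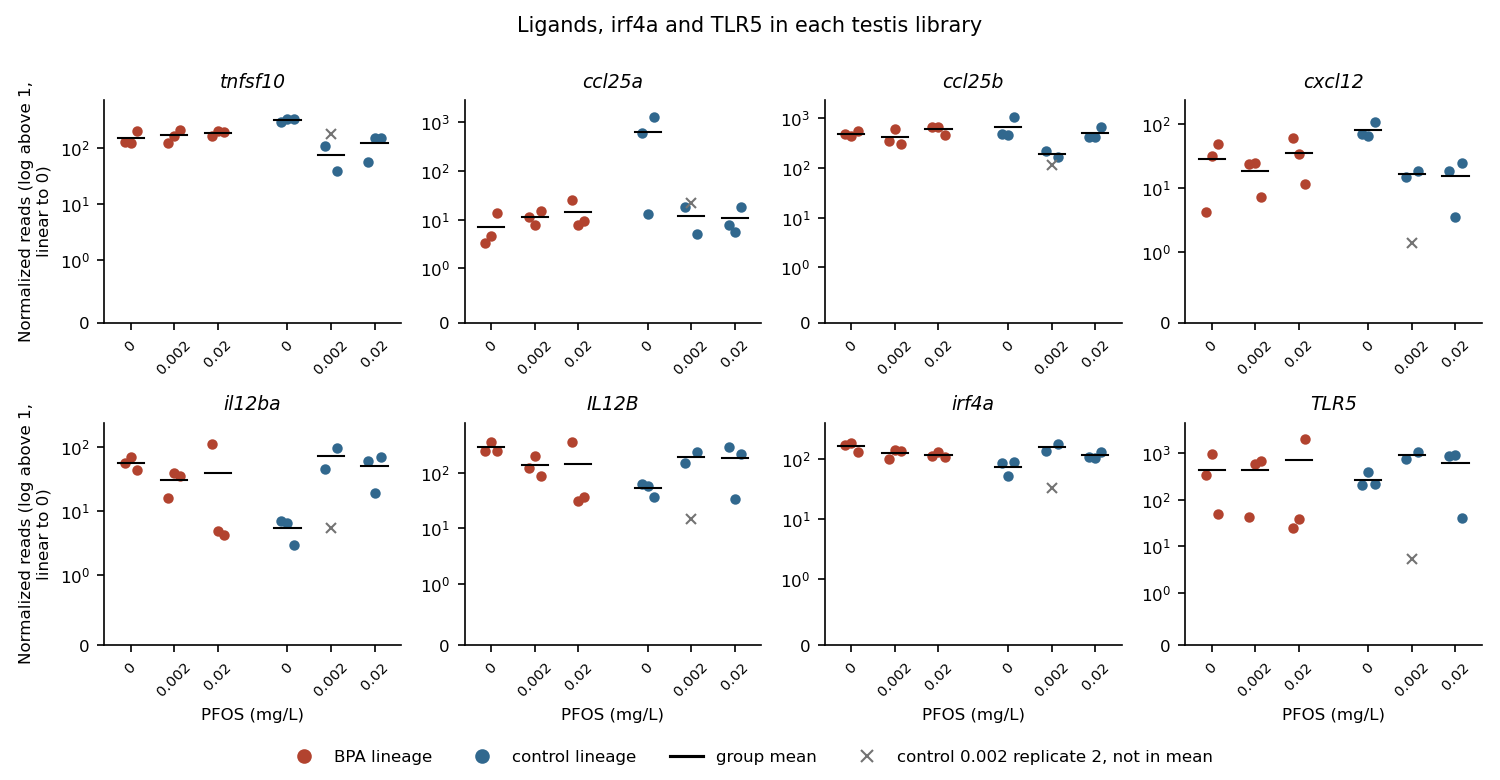
Normalized reads (logarithmic above 1, linear from 0 to 1) of 6 ligands, irf4a and TLR5 in every library, by PFOS concentration in mg/L, for the BPA lineage (red) and the control lineage (blue). Points are libraries, bars are group means, and the cross is the library left out. ccl25a stands at 602 and 1259 in 2 control 0 libraries and at 3.37 to 25.6 in all the others in the fit.

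Receptors gave 2 called members among 25. il17rd (ENSORLG00000017397), a brake on fibroblast growth factor signalling in zebrafish and mammals, had 31.99, 54.8 and 41.7 reads in BPA 0.002 testes and 14.3, 10.3 and 30.8 in BPA 0 testes. In the control lineage it had 14.8 and 8.37 in control 0.002 testes and 59.8, 33.2 and 92.2 in control 0 testes. Exposed libraries lay above the unexposed ones in the BPA lineage and below them in the control lineage, with no overlap in either. The differences were 1.28 ± 0.53 (SE; limma, adjusted p = 0.48) and -2.25 ± 0.59 (SE; limma, adjusted p = 0.0435), and the interaction was 3.53 ± 0.79 (SE; limma, adjusted p = 0.0485). It passed in 3 of 11 fits without 1 library, with values of 3.15 to 3.95, and was 2.77 without both gut- and kidney-rich libraries (adjusted p = 0.341, limma). Without PFOS the 2 lineages did not overlap, BPA 0 lay lower, and the difference was -1.71 ± 0.53 (SE; limma, adjusted p = 0.0489). Without both gut- and kidney-rich libraries it was -0.95, and -1.49 for control 0.002 against control 0. These calls were lost in 10 of 15 and 9 of 14 alternative runs.

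cxcr3.2 (ENSORLG00000013459), a chemokine receptor found on macrophages in zebrafish, had 4.90, 18.4 and 8.85 reads in control 0.02 testes and 42.7, 21.05 and 58.4 in control 0 testes. All exposed libraries were lower, with a log2 difference of -1.89 ± 0.59 (SE; limma, adjusted p = 0.0445). It was -1.08 without both gut- and kidney-rich libraries, and the call was lost in 8 of 15 alternative runs. ccr9b, receptor for the ccl25 chemokine in mammals, had 0, 0 and 17.7 in control 0.02 testes and 14.01, 13.8 and 53.8 in control 0 testes, and missed the threshold with -3.11 ± 1.02 (SE; limma, adjusted p = 0.0526), or -2.48 without both gut- and kidney-rich libraries.

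csf1ra, the receptor that macrophages need, had 12.7, 38.1 and 2.21 reads in control 0.02 testes and 54.8, 39.7 and 67.6 in control 0 testes. These did not overlap, though control 0 replicate 2 lay close to the highest control 0.02 library, and the difference of -2.16 ± 0.71 (SE; limma, adjusted p = 0.0531) missed the threshold. It was -1.76 without both gut- and kidney-rich libraries (adjusted p = 0.456, limma). ccr7, a receptor of lymphocyte and dendritic cell homing, had 815, 1162 and 834 in BPA 0 testes and 488, 618 and 337 in control 0 testes, also without overlap and short of the threshold at 0.98 ± 0.31 (SE; limma, adjusted p = 0.0513), or 0.58 without both gut- and kidney-rich libraries. il6st, the gp130 chain shared by interleukin-6 type receptors, had 1184, 951 and 995 in control 0.02 testes and 1714, 2819 and 2009.7 in control 0 testes. Its difference was -1.04 ± 0.35 (SE; limma, adjusted p = 0.0605), or -1.44 without both gut- and kidney-rich libraries.

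il10ra, a chain of the interleukin-10 receptor, had 7.62, 12.2 and 5.87 reads in BPA 0.002 testes and 26.1, 54.5 and 29.3 in BPA 0 testes. TNFRSF11B, the decoy receptor osteoprotegerin, had 9.90, 8.37 and 6.52 at 0.002 mg/L and 29.5, 30.05 and 20.3 without PFOS. Both were lower in all exposed libraries and neither passed, with -1.96 ± 0.58 (SE; limma, adjusted p = 0.43) and -1.57 ± 0.55 (SE; limma, adjusted p = 0.444). relt, a TNF receptor family member, had 69.5, 96.1 and 186 in BPA 0.02 testes and 262, 249 and 293 in control 0.02 testes. It had the smallest p between lineages at that concentration, with -1.31 ± 0.37 (SE; limma, adjusted p = 0.241).

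The receptors CXCR4 and cxcr4a, which bind cxcl12, ranged from 189.7 to 563 and from 14.7 to 136 reads and were not called. tnfrsf1a, the main TNF receptor, ranged from 910.3 to 2121 and csf3r, the granulocyte receptor, from 9.14 to 71.1. Neither was called. Also not called were tnfrsfa (305 to 643 reads), tnfrsf21 (96.3 to 461), tnfrsf19 (83.4 to 203) and tnfrsf11a, the receptor RANK of mammals (133 to 426). Chemokine receptors with no call were ccr6a (209 to 406), cxcr3.3 (159 to 475) and ccr12a (11.7 to 153). Interleukin receptor genes with no call were il12rb2l (185 to 424), il12rb2 (10.6 to 120.2), il13ra2, a decoy receptor in mammals (14.8 to 80.1), il6r (3.51 to 45.1) and il1rapl2 (6.09 to 38.5).

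The macrophage markers were read beside these receptors. Their sum over 5 genes was 357 to 633 in BPA 0, 99.0 to 183 in BPA 0.002, 144 to 396 in BPA 0.02, 218 to 797 in control 0, 97.0 to 176 in control 0.002 and 125 to 324 in control 0.02. Both BPA 0.002 and control 0.002 lay wholly below their unexposed groups, while BPA 0.02 and control 0.02 overlapped theirs. No marker was at 0 throughout a group. MFAP4 was the one marker of the 5 called, with -3.74 ± 0.61 (limma, adjusted p = 0.0151) for control 0.002 against control 0. For the interaction at 0.002 mg/L it had 3.56 ± 0.82 (limma, adjusted p = 0.049). Both calls were lost without both gut- and kidney-rich libraries (-3.31 and 3.13). The 5 lymphocyte markers summed to 138 to 236 in BPA 0, 61.7 to 90.6 in BPA 0.002, 47.7 to 120 in BPA 0.02, 53.4 to 298 in control 0, 59.0 to 107 in control 0.002 and 63.5 to 148 in control 0.02. None of the 4 tested passed, and pax5 was at 0 in all libraries of BPA 0.02 and control 0.002. The part of these cells in the receptor and ligand differences was not tested.

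No Toll-like receptor was called, nor was myd88. myd88, the shared adaptor, ranged from 609 to 1334 reads over the 17 libraries. TLR5, the receptor for bacterial flagellin, had 329.7, 918 and 48.1 reads in BPA 0 testes, 42.6, 564 and 675 in BPA 0.002 testes and 24.8, 39.3 and 1997 in BPA 0.02 testes. In the control lineage it had 202, 385 and 210.1 in control 0, 742 and 1028 in control 0.002 and 845, 890.3 and 41.3 in control 0.02 testes. High and low libraries occurred side by side in 4 of the 6 groups. Its SD within groups, 2.26 on the log2 scale, was the highest of the 90 members, beside a median of 0.541 over members and 0.411 over all genes. The interval of the PFOS difference at 0.02 mg/L in the BPA lineage, -4.64 to 2.74 on the log2 scale, does not determine its sign.

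tlr3, which binds double-stranded RNA, ranged from 9.18 to 42.7 reads and tlr9, which binds unmethylated CpG DNA, from 3.51 to 75.01. tlr18, a receptor of fish, ranged from 2.81 to 61.03. The 2 rows named tlr7 ranged from 3.04 to 40.7 and from 2.21 to 29.3, and at these read numbers only large changes could be detected.

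One interferon regulatory factor was called. irf4a (ENSORLG00000017242), which in mammals acts in lymphocytes and dendritic cells, had 168, 181 and 131 reads in BPA 0 testes and 83.4, 50.99 and 87.03 in control 0 testes. All BPA libraries were higher, with a difference of 1.13 ± 0.30 (SE; limma, adjusted p = 0.028). It passed in 2 of 6 fits without 1 library, those without BPA 0 replicate 3 and control 0 replicate 3, and was 1.62 without both gut- and kidney-rich libraries (adjusted p = 0.178, limma). The other 8 IRF members were not called there. Counting irf4a, 8 of 9 had a negative difference, also under TMM, and 5 of 9 without both gut- and kidney-rich libraries. The share of all genes below 0 was not counted.

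IRF1, an early interferon-induced factor, had 74.2, 39.4 and 49.7 reads in BPA 0 testes and 277, 63.1 and 563 in control 0 testes. The 2 highest values were again control 0 replicates 1 and 3, and the difference was -2.01 ± 0.69 (SE; limma, adjusted p = 0.0684), or -0.26 without both of them. irf3, which starts interferon production in mammals, ranged from 150.5 to 484 and irf8, a factor of myeloid cells, from 17.6 to 169. irf5 and irf2 ranged from 371 to 713 and from 225 to 1041. irf10 ranged from 9.78 to 76.2. irf4b ranged from 7.20 to 55.9.

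Of the 5 TNF-induced and associated proteins, tnfaip8l3 (ENSORLG00000027022), a phosphoinositide-binding protein in mammals, was called. It had 1.96, 1.41 and 1.47 reads in control 0.02 testes and 7.64, 16.2 and 455 in control 0 testes. The exposed libraries were all lower, and control 0 replicate 3 alone held the high value. The difference was -3.97 ± 1.03 (SE; limma, adjusted p = 0.0258) and -2.23 without that library (adjusted p = 0.0681, limma), and -2.72 without both gut- and kidney-rich libraries. tnfaip8l1 and tnfaip8l2b, of the same family, ranged from 1473 to 2228 and from 826 to 2290.4. tnfaip3, the ubiquitin-editing brake on NF-kB known as A20, ranged from 115 to 259.9 and tnfaip6, which binds hyaluronan, from 0 to 92.2. None of these 4 was called.

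The genes kept because they share a name start, and placed in none of the roles above, were not called. jakmip1 had 7182, 4645 and 7333 reads in BPA 0.02 testes and 4785, 4175 and 3542 in BPA 0 testes. Its difference was 0.60 ± 0.18 (SE; limma, adjusted p = 0.115) and passed in 1 of the 8 alternative runs other than those without 1 library. jakmip3 ranged from 5.90 to 475, jakmip2 from 8.11 to 48.9, irf2bp1 from 4127 to 6259, irf2bp2a from 498 to 1277 and nfkbil1 from 601 to 1703. RELL1 and relch had the lowest spread within groups of all members (SD 0.103 and 0.120 on the log2 scale).

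**Figure D4:**
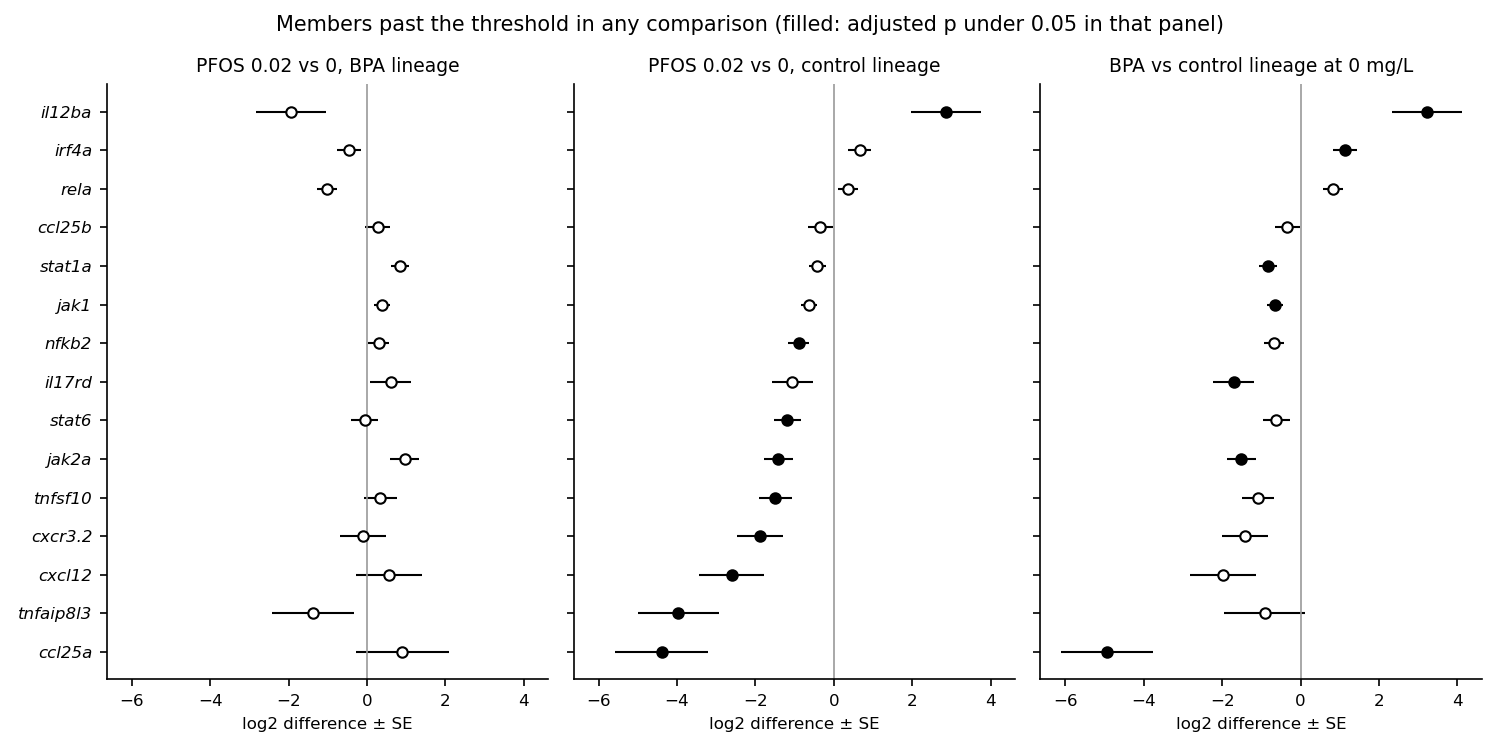
Log2 difference ± SE of the 15 members called in any comparison, in 3 comparisons on 1 horizontal scale. Filled points have an adjusted p under 0.05 in that panel. Filled points number 0 in the BPA lineage, 9 in the control lineage and 7 between lineages without PFOS.

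**Figure D5:**
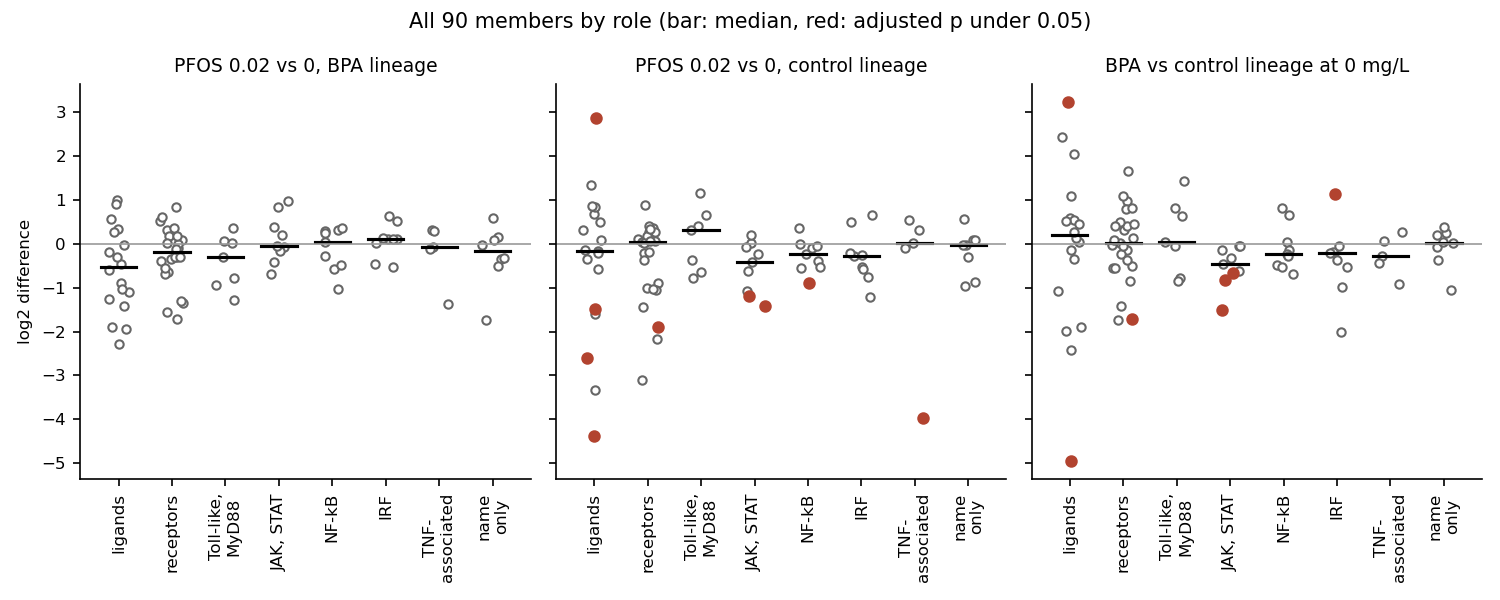
Log2 difference of each of the 90 members by role in the same 3 comparisons. Bars are medians per role and red points passed. Between lineages without PFOS 9 of 9 JAK and STAT members lie below 0 (7 of 9 without both gut- and kidney-rich libraries), and ligands span the widest range, from -4.95 to 3.23. The median over all genes there is 0.07, and the share of all genes below 0 was not counted.

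Other genes of the same pathways were read from 4 lists of pathway members. Their calls all use control 0, other than 1 for socs6, and values without both gut- and kidney-rich libraries are given for the genes named. Of 25 adaptors and kinases between Toll-like receptors and NF-kB, 2 fell at 0.02 mg/L in the control lineage. These were hsp90b1, a chaperone of Toll-like receptors, with -0.84 ± 0.23 (limma, adjusted p = 0.0311), and unc93b1, which escorts them to endosomes, with -2.10 ± 0.56 (limma, adjusted p = 0.0268). Without both libraries they were -0.67 and -2.46, no longer called. The 2 of 25 stand beside 6.67% of all genes lower. bcl3, a nuclear NF-kB partner, fell at 0.002 mg/L, with -1.96 ± 0.44 (limma, adjusted p = 0.0291), and traf4a was higher in BPA 0 than in control 0, by 1.20 ± 0.28 (limma, adjusted p = 0.0171). hsp90b1 also passed for the interaction at 0.02 mg/L, with 1.37 ± 0.33 (limma, adjusted p = 0.0131). Without both libraries bcl3, traf4a and this interaction were -1.84, 1.39 and 1.20, none called. No other of the 25 passed in any comparison.

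Of 8 cytosolic sensing genes, trim25, a ubiquitin ligase of the RIG-I pathway in mammals, and nod1, a sensor of bacterial cell wall fragments, passed. trim25 was lower in control 0.02 than in control 0, with -1.37 ± 0.39 (limma, adjusted p = 0.0337), and in BPA 0 than in control 0, with -1.57 ± 0.39 (limma, adjusted p = 0.0205). nod1 was higher in control 0.02, by 0.86 ± 0.23 (limma, adjusted p = 0.0276). Their interactions at 0.02 mg/L were 2.71 ± 0.55 (limma, adjusted p = 0.00623) and -1.37 ± 0.33 (limma, adjusted p = 0.0125). None of these passed without both libraries. trim25 was then -1.41 in control 0.02 against control 0, -1.60 in BPA 0 against control 0 and 2.74 for the interaction, and nod1 0.78 in control 0.02 against control 0 and -1.29 for the interaction.

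Of 24 genes of JAK and STAT feedback, socs6 passed most often. It was 2.90 ± 0.53 (limma, adjusted p = 0.045) for BPA 0.02 against BPA 0, -2.85 ± 0.53 (limma, adjusted p = 0.00932) for control 0.02 against control 0 and -3.58 ± 0.53 (limma, adjusted p = 0.00295) for BPA 0 against control 0. Of the 24, 3 were lower in control 0.02 than in control 0 (6.67% of all genes), 2 in control 0.002 than in control 0 (2.74%) and 3 in BPA 0 than in control 0 (5.97%), and none was higher in these. The interaction at 0.02 mg/L passed for 4 of the 24, all positive (7.89% of all genes), with a median of 0.05 over the list. Among the 4 were pias1a, a STAT inhibitor, with 1.97 ± 0.56 (limma, adjusted p = 0.0272), and ptpn2b, a JAK phosphatase in mammals, with 1.56 ± 0.38 (limma, adjusted p = 0.0133). Without both libraries socs6 was -2.58 in control 0.02 and -3.32 in BPA 0 against control 0, neither called. Its interaction at 0.02 mg/L still passed (5.48, adjusted p = 0.0299, limma), and those of pias1a and ptpn2b did not (adjusted p = 0.14 and 0.0811, limma). Of 11 interferon and inflammation response genes, gbp, a guanylate-binding protein, was the one that passed. It was 1.38 ± 0.31 (limma, adjusted p = 0.0161) for control 0.02 against control 0, and -1.50 ± 0.44 (limma, adjusted p = 0.0325) for the interaction, or 1.16 and -1.27 without both libraries, neither called.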

How the data were processed

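The 18 libraries, 6 groups of 3, come from testis RNA (Zymo Quick RNA/DNA Miniprep Plus extraction, NEBNext Ultra II kit), per the labels' protocols. Reads were trimmed with fastp 0.23.2, aligned with STAR 2.7.7a and normalized with DESeq2 1.34.0, per the submitters' processing notes. Build, annotation, counting tool and strandedness were not given in the sources used here. Reads of near-identical paralogs and of overlapping or antisense genes cannot be told apart. The authors deposited normalized values, a signal of read counts divided by size factors over all 18 libraries. Every value was a whole multiple of 1 read within 0.01, which gave whole reads and the depth of each library (23685023 to 47728071 reads).

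Tests were made with limma 3.58.1 (R 4.3.3), trended and robust, on log2(value + 1) in a model of 6 group means over 17 libraries and the 18792 genes with a mean of at least 10. Fold changes on this scale understate those of low genes. P-values were adjusted by Benjamini-Hochberg over all genes tested within each comparison, at a threshold of 0.05. The code was tested on simulated data. The library labelled control 0.002 replicate 2 was named in advance by the rule that defines the members, with earlier results of these data known. Alternatives were all 18 libraries, a pseudocount of 5, no filter, TMM scaling, the groups of the comparison alone, a replicate block, each library left out, and count tests of recovered reads by edgeR 4.0.16 and by DESeq2 1.42.0. Leaving out both control 0 libraries rich in gut and kidney transcripts was added after the data were seen.

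Members and lists were chosen with earlier results of these data known. The text names, by role, the 2 highest and the lowest member, core members, called members, the 3 smallest p-values where none passed and up to 4 genes of other pathways a comparison, plus a few chosen after their values were seen. Gene names come from the deposited table. One member was counted in the tests and is not reported here by name.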

Additional observations from a re-analysis of the deposited data

Results flagged for a closer look

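The PFOS difference at 0.02 mg/L differed between the lineages in 8 members, by limma's test of the interaction (BPA-lineage difference minus control-lineage difference, log2). These were 8.89% of members, beside 14.2% of all genes. The values were 2.38 ± 0.52 for jak2a, 1.25 ± 0.32 for stat1a, 1.01 ± 0.29 for jak1, 1.20 ± 0.37 for nfkb2 and -1.39 ± 0.37 for rela. Among ligands they were 1.83 ± 0.59 for tnfsf10, 5.30 ± 1.67 for ccl25a and -4.80 ± 1.26 for il12ba. All of them use control 0, and none passed with all 18 libraries. Of 21 alternative runs, the call was lost in 2 for jak2a, 3 for stat1a, 6 for rela and 7 for il12ba. It was lost in 11 for jak1, 13 for nfkb2, 13 for ccl25a and 16 for tnfsf10. The value of ccl25a was 1.32 without both gut- and kidney-rich control 0 libraries. The values of the other members without those libraries are given with each member above. At 0.002 mg/L the PFOS difference differed between the lineages for il17rd, by 3.53 ± 0.79 (1.11% of members, beside 0.899% of all genes). That call was lost in 13 of 20 alternative runs, among them the run with all 18 libraries.

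No comparison uses the library labelled control 0.002 replicate 2. In it 21 of the 90 members lay above the highest of the other 17 libraries, 36 below the lowest and 33 inside the range. The same counts over all genes are not given here. Its normalized reads also had the highest sum of the 18 libraries, and the part of this in single values was not tested. The members named next exceeded 2 times the highest of the other 17 in that library. il17c had 731 normalized reads there (highest elsewhere 41.3), RELL1 2983 (599), il17d 144 (31.0), cxcr3.3 1965 (475) and tnfaip8l1 8034 (2228). stat4 had 1107 (323), nfkbiaa 4283 (1572), tnfrsfa 1606 (643), irf2bp2a 3057 (1277), nfkbil1 4026 (1703) and il34 129.6 (60.1). The part of the oocyte transcripts of that library in these values was not tested. The mean that defined the members included that library. il17d reached the minimum mean only through its reads there, so its high value follows from the choice of members. It is no separate observation, although it is among the 21 members above the range.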

How the results depend on the processing

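Counts of called members were 9 and 4 at 0.02 and 0.002 mg/L PFOS in the control lineage, 7 between lineages without PFOS, 8 and 1 for the interactions at 0.02 and 0.002 mg/L, and 0 elsewhere. With all 18 libraries they were 0, 8, 0, 0 and 0 in that order. With no filter the last was 0. With the groups of the comparison alone they were 4 and 0 in the control lineage and 4 and 8 for the interactions. DESeq2 gave 17, 16, 17, 13 and 10, and also 3 at 0.02 mg/L in the BPA lineage and 2 for the lineages over the mean of doses, and edgeR gave 0 for the last interaction. Without both control 0 libraries rich in gut and kidney transcripts, which leaves 1 library assumed to vary like the other groups, all 5 counts were 0. Leaving out 1 library gave 0 to 10, 0 to 7, 0 to 8, 2 to 13 and 0 to 3, and elsewhere 0 to 3 and 0 to 0 (BPA lineage, 0.02 and 0.002 mg/L) and 0 to 2, 0 to 1 and 0 to 0 (lineages at 0.002, at 0.02 and over the mean of doses). The cause of these changes was not tested.

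Deviations of same-numbered libraries from their group means had correlations of -0.20 to 0.31 (40 pairs, median -0.025, 4 over 0.1). Those of libraries with different numbers were -0.25 to 0.19 (80 pairs, median 0.026, 12 over 0.1). The highest, 0.31, was between replicates 2 of BPA 0.02 and control 0.02, with 0.23 for replicates 1 and 0.09 for replicates 3. Deviations within a group sum to 0, so these correlations cannot decide whether the numbers pair libraries. With a replicate block the counts were 6, 2, 6, 6 and 0. Every called member kept its direction in each alternative run. Members with few reads, such as il17c and il17d, also carry a large counting error.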

Other observations

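The 14 genes that matched the names but had means below 10 were tnfsf14, csf1b, tlr21, ccr10, il19l, tnfb, TLR8, ccr6b, cxcr2, tlr22, il22ra2, il12a, cxcl19 and 1 of the 2 rows named il17d. They include 3 Toll-like receptors and il12a, the p35 chain that joins the p40 chain in interleukin-12, and none was tested.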
